A study of Mus musculus with 10 samples.

Results

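The tRNA genes described here are the 104 RefSeq genes of biotype tRNA (GRCm38/mm10) that lie on mouse chromosome 13 between 20 and 24 Mb. They are 104 of the 403 nuclear tRNA genes placed on chromosomes in the annotation, and the other 299 lie elsewhere in the genome. The rule for membership rests on annotation and position and uses no measured value. The cells were C57BL/6J primary cortical neurons, cultured for 6 days in vitro and kept overnight in 3% serum before the experiment, and their chromatin was immunoprecipitated and sequenced (ChIP-seq). One group was depolarized with KCl (50 mM, 45 min) and the other was left untreated. The antibodies were against Rpc155, Gtf3c1, H3K27ac and H3K4me1, and each gave 1 list of enriched regions per condition, 8 lists in all. Per the design text each condition had 3 biological replicates, but with 1 list apiece the differences between KCl and untreated neurons below have no replicate check and carry no p-value. The age of the animals and the pooling of replicates are not stated in the sources used here, and library depth cannot be read from the lists.

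A tRNA gene is transcribed by RNA polymerase III from a promoter inside the gene, made of an A box and a B box. TFIIIC, whose largest subunit is Gtf3c1, binds these boxes and recruits TFIIIB, which brings in the polymerase, whose catalytic and largest subunit is Rpc155. Most tRNAs are encoded by several gene copies, and the stretch of mouse chromosome 13 examined here holds one of the large groups of them, among histone genes and vomeronasal and olfactory receptor genes. H3K27ac is a histone mark of active promoters and enhancers, and H3K4me1 is a mark of enhancers and of chromatin beside promoters.

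Letters of the genes themselves could be read for 3 of the 104 genes, those that lie inside another record of the RefSeq sequence tables (GRCm38.p6). They are shown because they carry the internal promoter that Gtf3c1 binds, and because all 3 had regions of Rpc155, Gtf3c1 and H3K27ac in both conditions. The stretch closest to the A box consensus and the stretch closest to the B box consensus, 11 letters each, are in capitals, with both strands searched and the strand of fewer mismatches printed. The second gene is given as RNA, as its source record has it.
n-TAagc16: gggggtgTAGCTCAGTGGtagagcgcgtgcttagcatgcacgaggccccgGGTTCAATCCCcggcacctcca
n-TItat14: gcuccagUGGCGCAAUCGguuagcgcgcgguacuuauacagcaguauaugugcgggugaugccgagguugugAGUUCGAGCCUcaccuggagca
n-TVcac9: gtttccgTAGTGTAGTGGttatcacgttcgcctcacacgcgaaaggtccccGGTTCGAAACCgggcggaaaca

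n-TAagc16, an alanine tRNA gene, lies at chr13:21222586-21222657 on the plus strand inside the promoter window of Gm32420. Its A box stretch begins at base 8 with 1 mismatch and its B box stretch at base 51 with 1 mismatch. n-TItat14, an isoleucine tRNA gene of 94 bases, lies at chr13:21896938-21897031 on the minus strand inside the hairpin record of Mir1983. Its A box stretch begins at base 8 with 1 mismatch and its B box stretch, pushed further into the longer gene, at base 73 with 2 mismatches. n-TVcac9, a valine tRNA gene, lies at chr13:23446142-23446214 on the minus strand inside the promoter window of Gm46404. Its A box stretch begins at base 8 with 2 mismatches and its B box stretch at base 52 with 0 mismatches. All 3 matched the shorter B box core GTTCNANNC, which lies within the B box, with 0 mismatches. A match describes letters and does not show a bound site. Among 32851 promoter windows of 300 bases, an exact A box was found in 1.28%, an exact B box in 0.122% and the core in 9.32%, counting either strand.

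A run of TTTT, the kind of signal at which RNA polymerase III stops, began 1 base after the end of n-TAagc16, 2 bases after n-TItat14 and 12 bases after n-TVcac9. A run of this kind is common, with 78% of the 300-base windows holding one on either strand. The annotated microRNA mmu-miR-1983 overlaps the end of n-TItat14 on the same strand, at chr13:21896930-21896950. Of its 21 bases, 13 lie inside the tRNA gene and 8 beyond it, across the TTTT run. Its seed, bases 2 to 8, is in capitals.
mmu-miR-1983: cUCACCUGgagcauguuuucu

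All values below are the authors' fold enrichment, the height of a region's summit over the local background as the peak caller gave it, or counts of genes with a region. A gene was counted when a region overlapped it or its 200 bp flanks by at least 1 bp, and it took the value of its strongest region. n-TAagc16 had an Rpc155 fold enrichment of 54.1 in KCl neurons and 46.7 in untreated neurons, and Gtf3c1 values of 14.0 with KCl and 10.6 untreated. n-TItat14 had Rpc155 values of 44.3 with KCl and 39.7 untreated, and Gtf3c1 values of 14.0 with KCl and 7.47 untreated. n-TVcac9 had Rpc155 values of 39.8 with KCl and 44.3 untreated, and Gtf3c1 values of 15.1 with KCl and 13.8 untreated. Each of the 3 lay above the median of the listed cluster genes for both proteins in both conditions.

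The 104 genes spanned 2369635 bp, from 21160785 to 23530419. They coded for 17 isotypes (the amino acid letter in the gene name) with 35 anticodons, and cysteine, histidine and asparagine were absent, while 20 isotypes occurred outside. Methionine was the isotype with the largest share of its genes here, 11 of 16, followed by tyrosine with 6 of 10, serine with 12 of 22 and isoleucine with 8 of 16. Neighbouring genes were a median of 3143 bp apart, and 29 gaps were of 1 kb or less. With genes up to 100 kb apart joined, they fell into 5 groups by position. Group 1 held 24 genes (21160785 to 21326789), group 2 the single serine gene n-TSgct2 (21492845 to 21492926), group 3 n-TGgcc7 and n-TMcat7 (21710580 to 21711065), group 4 32 genes (21848022 to 22050767) and group 5 45 genes (23270421 to 23530419). The gap of 1219653 bp before group 5 contained 36 vomeronasal receptor genes of the Vmn1r family.

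Marker genes were checked through H3K27ac regions within 1 kb of a gene end. All 11 neuronal markers had one in KCl and in untreated neurons. Astrocyte markers had one at 2 of 4 genes with KCl and 3 of 4 untreated, oligodendrocyte-lineage markers at 1 of 5 in each, and microglial (4 genes) and endothelial (2 genes) markers at 0 in each. The part of other cells in the results was not tested. The whole Rpc155 list held 4251 regions with KCl and 12531 untreated. For the other antibodies the 2 lists were closer in length.

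Nearly all of the cluster's tRNA genes lay at a region of RNA polymerase III. Rpc155 was listed at 94 of 104 genes with KCl (90.4%, exact 95% interval 83.0 to 95.3), against 53.2% of the tRNA genes outside. In untreated neurons it was listed at 96 of 104 (92.3%, 85.4 to 96.6), against 57.2% outside. Gtf3c1 was listed at 75 genes with KCl (72.1%, 62.5 to 80.5), against 50.5% outside, and at 72 untreated (69.2%, 59.4 to 77.9), against 51.2% outside. The intervals of the cluster and of the outside genes did not overlap for Rpc155 or Gtf3c1 in either condition. All intervals cover counting error only, and neighbouring genes can share 1 region.

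H3K27ac was listed at 62 cluster genes with KCl (59.6%, 49.5 to 69.1), against 47.8% outside. In untreated neurons it was listed at 29 (27.9%, 19.5 to 37.5), against 43.5% outside. The KCl share was thus above that of the outside genes, with overlapping intervals. The untreated share was below it, with intervals that lay side by side (cluster up to 37.53, outside from 37.78) and that overlapped when 5 entries with scaffold coordinates were counted as outside genes (from 37.13). H3K4me1 was listed at 54 cluster genes with KCl (51.9%, 41.9 to 61.8), against 33.1% outside, and at 52 untreated (50.0%, 40.03 to 59.97), against 25.4% outside. Among the 49189 RefSeq genes that are not tRNA genes, counted by the same rule, Rpc155 was listed at 6.09% with KCl and 15.6% untreated, and Gtf3c1 at 32.1% with KCl and 33.9% untreated. H3K27ac was listed there at 38.1% with KCl and 36% untreated, and H3K4me1 at 52.6% with KCl and 52.4% untreated. Those genes are much longer (median 6145 bp), which gives a region more room to overlap. The tRNA genes of chromosome 11, which lie in several places along it, had Rpc155 at 41 of 47 genes in each condition, and likewise Gtf3c1 at 41. They had H3K27ac at 39 with KCl and 33 untreated, and H3K4me1 at 28 with KCl and 22 untreated. Of the 53 tRNA genes of chromosome 6, Rpc155 was listed at 4 in each condition, and Gtf3c1 at 3 with KCl and 2 untreated. H3K27ac was listed there at 2 and H3K4me1 at 3 in each. High shares were thus not particular to the cluster, and the outside genes were a mixed set.

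**Figure D1:**
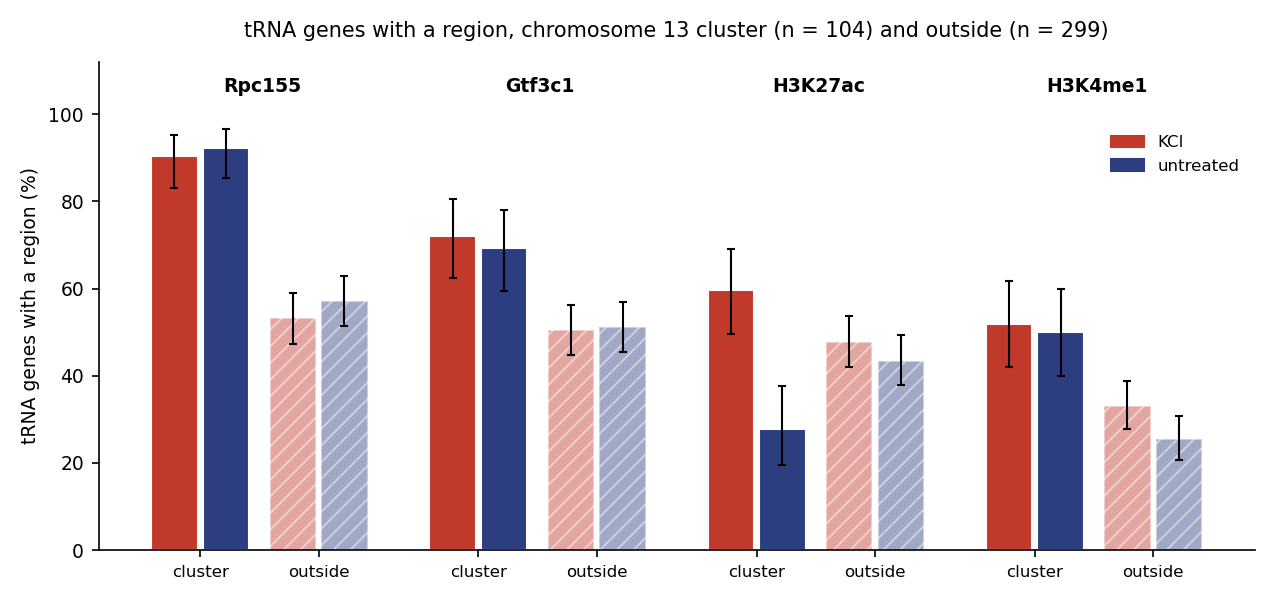
Share of tRNA genes (%, y axis) with a region of each antibody, in the chromosome 13 cluster (full colour, n = 104) and outside it (hatched, n = 299), with KCl (red) and untreated (blue). Bars are shares and error bars exact 95% binomial intervals: in H3K27ac the cluster bar is 59.6% with KCl and 27.9% untreated, while outside it is 47.8% with KCl and 43.5% untreated.

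Over listed genes, the cluster had lower median fold enrichments than the tRNA genes elsewhere. The median Rpc155 fold enrichment over the listed genes was 34.9 with KCl (4.03 to 62.5) and 33.8 untreated (5.77 to 57.9), against medians of 46.5 with KCl and 50.2 untreated outside. For Gtf3c1 the cluster median was 9.15 with KCl and 6.86 untreated, against 12.9 and 11.6 outside. H3K27ac had medians of 6.09 with KCl and 3.81 untreated in the cluster, against 9.86 and 6.86 outside. H3K4me1 had medians of 4.05 with KCl and 3.82 untreated in the cluster, against 5.83 and 5.33 outside. These medians are over listed genes, so they leave out those with no region. For Rpc155 and Gtf3c1 a larger share of genes was listed in the cluster than outside. The medians thus compare unlike parts of the gene sets and do not show that strong genes were fewer in the cluster.

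Inside the span of the cluster, Rpc155 kept almost entirely to tRNA genes. Of 79 Rpc155 regions with KCl, 70 lay at a member (88.6%), and of 83 untreated, 71 did (85.5%). The regions elsewhere in the span were weak, with a median fold enrichment of 3.27 with KCl and 3.57 untreated and a highest value of 5.09 and 5.94. The 20 strongest Rpc155 regions of the span were at members in both conditions. For Gtf3c1, 20 of the 20 strongest with KCl and 19 of 20 untreated were at members. Over all its regions in the span Gtf3c1 was less confined, with 57 of 100 at members with KCl and 55 of 87 untreated. Its highest value elsewhere in the span was 9.73 with KCl and 8.77 untreated. H3K27ac differed, with 7 of its 20 strongest at members with KCl and 10 untreated, and so did H3K4me1, with 1 with KCl and 3 untreated.

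The cluster's strongest Rpc155 regions with KCl were single regions over several genes. One covered n-TGgcc6, n-TMcat6 and n-TStga1, genes for glycine, methionine and serine tRNAs, and had a fold enrichment of 62.5 with KCl, against 46.5 untreated. A second covered the glutamate gene n-TEctc11, the first gene of the cluster, and the phenylalanine gene n-TFgaa4, with 61.9 with KCl and 51.1 untreated. Among cluster genes the highest untreated value, 57.9, belonged to the region over n-TGgcc7 and n-TMcat7 of group 3, which had 61.9 with KCl. The next was the region over n-TMcat15, n-TLaag7 and n-TLaag5, with 56.1 with KCl and 53.8 untreated. The last gene, the methionine gene n-TMcat9, had 47.9 with KCl and 50.3 untreated and lay 625 bp from the histone gene H4c8.

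In all, 70 distinct Rpc155 regions with KCl and 71 untreated accounted for the 94 and 96 listed genes. In each condition 43 genes shared a region with another, and the most genes under 1 region were 3 with KCl and 5 untreated. The 5 were n-TGgcc6, n-TMcat6, n-TStga1, n-TQttg4 and n-TQttg5, which lay under 1 untreated region of 46.5. With KCl the glutamine genes n-TQttg4 and n-TQttg5 had a region of their own, of 32.2. Ratios of these genes between conditions therefore compare regions with different borders.

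Rpc155 and Gtf3c1 summits lay in or close to the tRNA gene, and those of the histone marks farther away. The summit was inside the gene itself for Rpc155 at 38 of 94 genes with KCl and 67 of 96 untreated, and for Gtf3c1 at 39 of 75 with KCl and 39 of 72 untreated. The lower Rpc155 count with KCl was not particular to the cluster. Outside, the Rpc155 summit was inside the gene at 53 of 159 genes with KCl and 90 of 171 untreated. The distances that follow are those of cluster genes. The median distance from the summit to the middle of the gene was 42.8 bp with KCl and 23.5 bp untreated for Rpc155, and 39 bp with KCl and 32.8 bp untreated for Gtf3c1. Summits within 100 bp numbered 70 of 94 with KCl and 71 of 96 untreated for Rpc155. For H3K27ac the medians were 397 bp with KCl and 311 bp untreated, and 0 of 62 and 0 of 29 summits lay within 100 bp. H3K4me1 summits lay at a median of 364 bp with KCl and 298 bp untreated. Rpc155 regions were a median of 734.5 bp wide with KCl and 741 bp untreated, and H3K27ac regions 1429 bp with KCl and 785.5 bp untreated. Distances are without direction, since the gene table used here gives no strand.

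**Figure D2:**
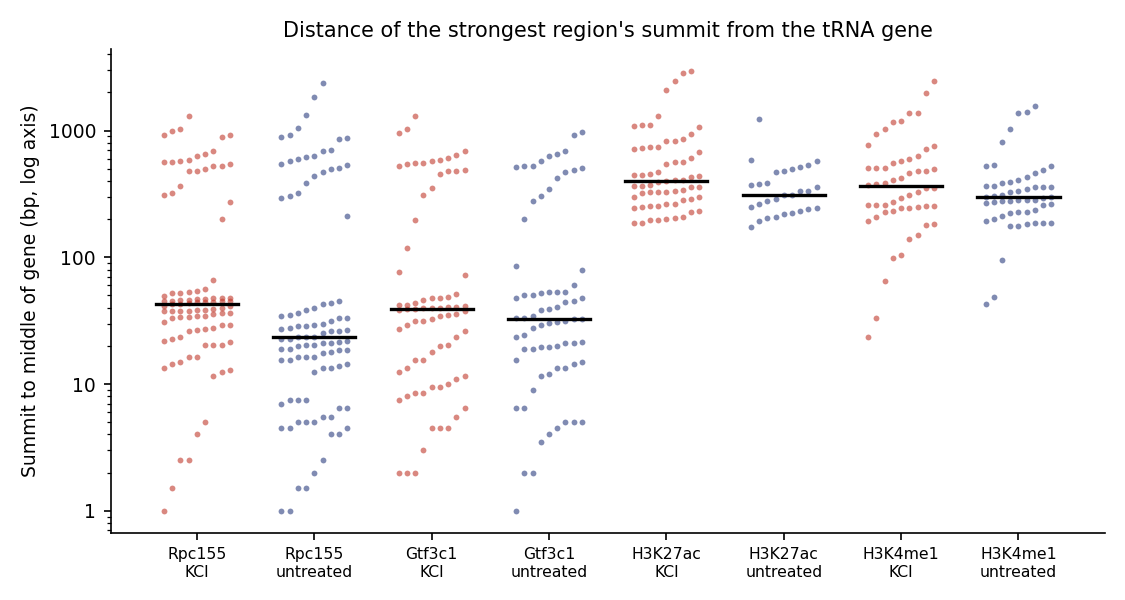
Distance in bp (log axis) from the summit of a gene's strongest region to the middle of the tRNA gene, for each of the 8 lists, with 1 point per listed cluster gene and the median as a bar. Rpc155 and Gtf3c1 medians lie between 23.5 and 42.8 bp, those of H3K27ac and H3K4me1 between 298 and 397 bp.

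Gtf3c1 was found where Rpc155 was, but at fewer genes. With KCl, 75 of the 94 genes with Rpc155 also had Gtf3c1, and untreated 72 of 96, while 0 genes in either condition had Gtf3c1 without Rpc155. Outside the cluster the share was higher, 150 of 159 genes with KCl and 149 of 171 untreated. There, 1 gene with KCl and 4 untreated had Gtf3c1 without Rpc155. In the cluster, the Rpc155 values differed between these classes. Genes with both had a median Rpc155 fold enrichment of 41.4 with KCl and 40.3 untreated, and genes with Rpc155 alone 8.35 with KCl and 10.0 untreated. Over distinct pairs of regions, Rpc155 and Gtf3c1 values had a Spearman rho of 0.83 with KCl and 0.71 untreated (56 pairs in each), a description over regions whose values come from the same 2 lists. Outside the cluster the rho was 0.82 with KCl (106 pairs) and 0.72 untreated (108 pairs).

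Among cluster genes, the highest Gtf3c1 value with KCl was that of the region over the isoleucine gene n-TIaat8 and the alanine gene n-TAcgc10, at 17.4. In untreated neurons these 2 genes had separate regions, of 9.43 at n-TIaat8 and 4.48 at n-TAcgc10. The region over n-TGgcc6, n-TMcat6 and n-TStga1 had 16.3 with KCl and 9.67 untreated. Of the cluster's untreated regions, the one over n-TVcac9 and the arginine gene n-TRacg5 came first, at 13.8, with 15.1 under KCl. It was followed by n-TMcat9, with 14.7 under KCl and 13.1 untreated, and by n-TGgcc7 and n-TMcat7, with 10.6 under KCl and 12.4 untreated.

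Of the 92 cluster genes with Rpc155 in both lists, 16 had Gtf3c1 in neither, against 7 of 159 outside. The strongest of the 16 were the methionine gene n-TMcat5, with Rpc155 at 38.6 under KCl and 32.9 untreated, and the threonine gene n-TTagt1, with 37.7 under KCl and 37.3 untreated. Each shared its Rpc155 region with a neighbour that did have Gtf3c1, n-TRacg4 beside n-TMcat5 and n-TIaat7 beside n-TTagt1. Next came n-TMcat2, with 19.9 under KCl and 26.8 untreated, and the lysine gene n-TKttt23, with 10.2 under KCl and 15.1 untreated. n-TAagc12 and n-TVaac2 lay under 1 Rpc155 region of 13.1 with KCl and 10.9 untreated.

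Across the cluster, the position groups differed in strength. Group 1 had Rpc155 at 23 of 24 genes with KCl and 24 untreated, with medians of 49.8 and 46.6. Both genes of group 3 had it, at 61.9 with KCl and 57.9 untreated. Group 4 had Rpc155 at 26 of 32 genes in each condition, with medians of 27.02 with KCl and 27.16 untreated, and Gtf3c1 at 16 in each. Group 5 had Rpc155 at 43 of 45 genes with KCl and 44 untreated, with medians of 34.9 and 31.8, and Gtf3c1 at 36 with KCl and 35 untreated. Group 4 thus had the lowest Rpc155 and Gtf3c1 shares and medians of the 3 large groups.

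Part of group 4 had weak regions or none. The longest run of neighbouring genes with Gtf3c1 in neither list was 8 genes, from the leucine gene n-TLcaa2 to the glutamine gene n-TQctg8 (21914838 to 21934032). Rpc155 was listed at 4 of them with KCl (4.03 to 9.44) and at 3 untreated (6.28 to 8.83), and H3K4me1 at 3 with KCl (2.65 to 6.54) and 3 untreated (2.88 to 5.69). In all, 6 of the 8 had a region in some list, 5 of them of Rpc155. The longest run with H3K27ac in neither list was 13 genes, from n-TMcat2 to n-TSaga1 (21907111 to 21937175), which contains the first run. Inside it the aspartate genes n-TDgtc11 and n-TDgtc13 still had strong Rpc155. n-TDgtc11 had 31.3 with KCl and 32.9 untreated, and n-TDgtc13 had 34.9 with KCl and 24.3 untreated. Both had Gtf3c1 in both lists. These runs were picked out after their values were seen.

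**Figure D3:**
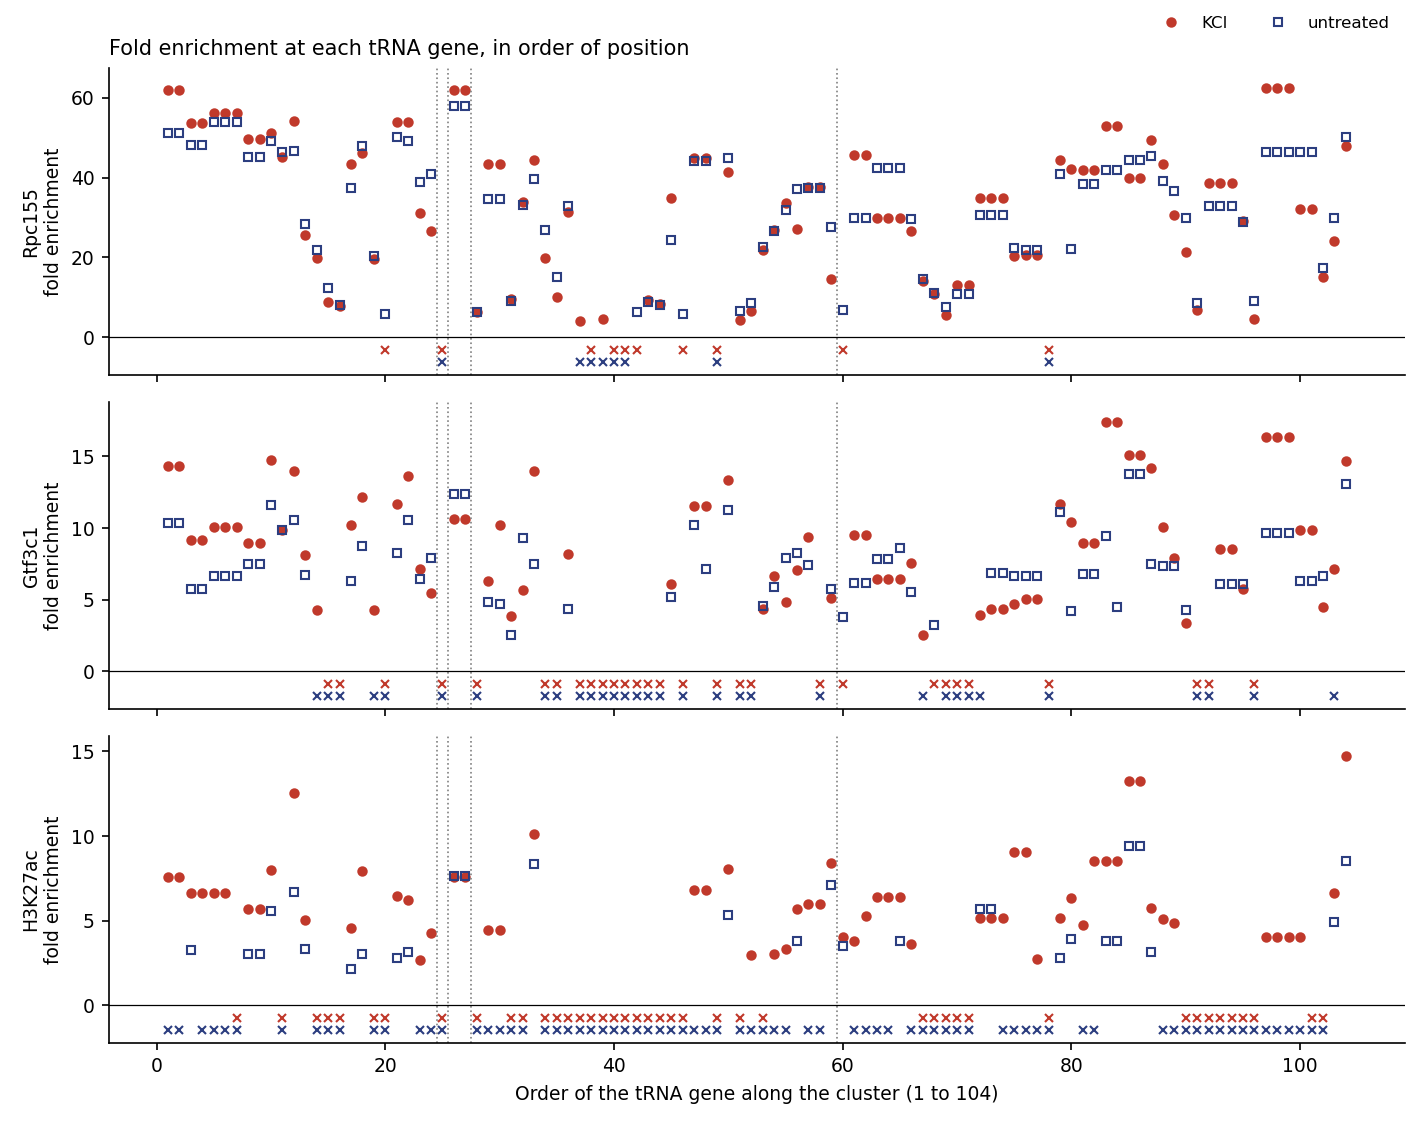
Fold enrichment (y axis) of Rpc155, Gtf3c1 and H3K27ac at each of the 104 tRNA genes in order of position (x axis), with KCl (filled red) and untreated (open blue); crosses below 0 mark genes with no region in that list, and dotted lines part the 5 position groups. Rpc155 reaches 62.5 and is missing at few genes, Gtf3c1 is missing across 8 neighbouring genes in group 4, and in H3K27ac crosses are more frequent for untreated neurons.

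The 6 genes with Rpc155 in neither list were singled out after their values were seen. They were n-TSgct2, n-TRtct3, n-TQctg10, n-TStga2, n-TKttt22 and n-TYgta6. n-TRtct3, the cluster's single arginine gene with anticodon tct, had an H3K4me1 region in the untreated list (3.55). The other 5 had no region in any of the 8 lists. n-TYgta6 stood 1557 bp from n-TYgta5, which had Rpc155 at 20.5 with KCl and 21.7 untreated. That region was shared with n-TYgta4, and its summit lay 590.5 bp from n-TYgta5 with KCl and 549.5 bp untreated. Copies of the same isotype and anticodon could differ. n-TQctg10 had no region, while n-TQctg7 had Rpc155 at 49.8 with KCl, with the summit 41.5 bp from the middle of the gene. n-TStga2 had no region and n-TStga1 lay under the cluster's strongest Rpc155 region with KCl. The summit of that region was 986.5 bp from n-TStga1, so its value need not be that of n-TStga1 itself.

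By isotype, Rpc155 was listed at every methionine (11), alanine (12), valine (10) and threonine (7) gene in both conditions. Methionine genes, whose tRNAs start and extend proteins, had a median of 41.4 with KCl and 45.0 untreated, spread between 9.44 and 62.5 with KCl. Alanine genes had medians of 39.1 with KCl and 34.1 untreated, valine genes 29.8 with KCl and 30.7 untreated, and threonine genes 37.7 with KCl and 37.3 untreated. Leucine genes had Rpc155 at 7 of 7 with KCl and 6 of 7 untreated, with medians of 49.8 and 47.1. In each of these 5 isotypes the values given to single genes ranged more widely than the medians of the 5 did. Some of these values came from regions shared with another isotype. The summit behind the 49.8 of n-TLcaa4 with KCl lay 544.5 bp from that gene and 41.5 bp from n-TQctg7. The summit behind the 62.5 of n-TMcat6 lay 527.5 bp from that gene and 38 bp from n-TGgcc6. The medians therefore need not be those of the isotype alone.

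Serine had the fewest listed genes of the larger isotypes, 8 of 12 with KCl and 9 of 12 untreated, with medians of 24.4 and 27.5. Glutamine had 5 of 7 with KCl and 6 of 7 untreated. Of the 4 glutamine genes with anticodon ctg, n-TQctg7 in group 1 had 49.8 with KCl and 45.2 untreated. n-TQctg1 had 6.54 with KCl and 8.45 untreated, n-TQctg8 had 8.35 with KCl and 7.98 untreated, and n-TQctg10 had no region. Isoleucine genes had a median of 37.7 with KCl (7 of 8) and 24.6 untreated (8 of 8). n-TIaat15, listed in untreated neurons alone at 6.79, enters the untreated median, and over the 7 isoleucine genes in both lists the median ratio was 1.06.

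The tyrosine genes formed a compact set of 6 within 41520 bp of group 5. Rpc155 was listed at 5 in each condition, with medians of 20.5 with KCl and 22.2 untreated. The 4 tyrosine genes outside the cluster had medians of 48.9 with KCl and 52.5 untreated. The tryptophan genes n-TWcca3 and n-TWcca4 were the weakest isotype. n-TWcca3 had 6.90 with KCl and 8.66 untreated, n-TWcca4 had 4.58 with KCl and 9.17 untreated, and neither had Gtf3c1 or H3K27ac in any list. Of the 6 tryptophan genes outside, 5 had Rpc155 in each condition, with medians of 33.7 with KCl and 45.5 untreated. The glycine genes n-TGgcc6 and n-TGgcc7 were at the other end, with a median of 62.2 with KCl and 52.2 untreated. Both shared their regions with genes of other isotypes.

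**Figure D4:**
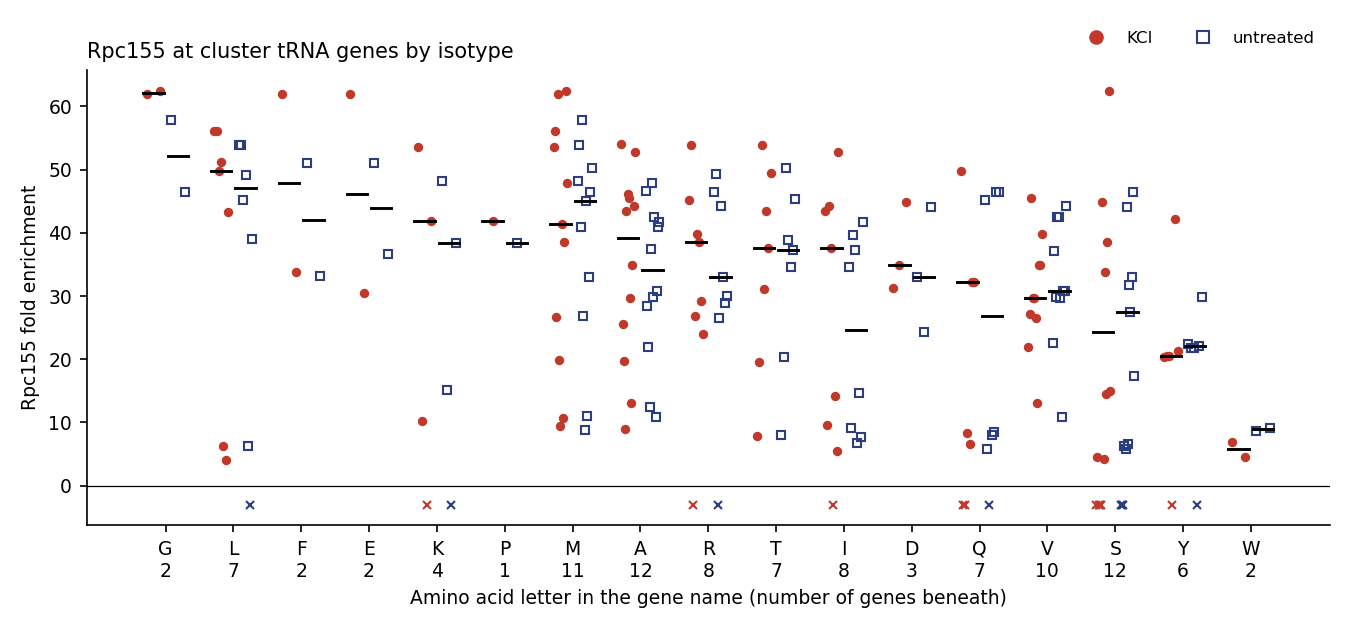
Rpc155 fold enrichment (y axis) of the cluster's tRNA genes by isotype (x axis, amino acid letter with the number of genes), with KCl (filled red) and untreated (open blue); black bars are medians over listed genes and crosses genes with no region. Medians with KCl run from 62.2 in glycine to 5.74 in tryptophan, and copies of 1 isotype spread widely, as in serine. Genes that share a region, also across isotypes, share its value.

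Among the anticodons with 1 gene in the cluster, n-TEctc11, n-TTtgt4, n-TRccg3, n-TItat14, n-TLcag10, n-TPagg3, n-TScga1 and n-TEttc5 all had Rpc155 above 30 in both lists. The threonine gene n-TTtgt4 had 53.9 with KCl and 50.3 untreated, and the arginine gene n-TRccg3 had 45.2 with KCl and 46.5 untreated. The leucine gene n-TLcag10 had 43.3 with KCl and 39.1 untreated, and the proline gene n-TPagg3 had 42.0 with KCl and 38.4 untreated. n-TPagg3 shared its region with n-TKctt11, and the summit lay 687.5 bp from n-TPagg3 with KCl and 698.5 bp untreated. Its value need not be that of n-TPagg3 itself. The serine gene n-TScga1 had 33.8 with KCl and 31.8 untreated, and the glutamate gene n-TEttc5 had 30.5 with KCl and 36.7 untreated. Lower values were found at the alanine gene n-TAtgc11, with 19.8 under KCl and 21.9 untreated, and at the leucine gene n-TLtaa2, with 6.36 under KCl and 6.28 untreated. n-TRtct3 had no Rpc155.

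Between KCl and untreated neurons, Rpc155 at the cluster was close to the same. It was listed in both conditions at 92 genes, with KCl alone at 2 (0% of outside genes) and untreated alone at 4 (4.01% of outside genes). The 2 KCl-alone genes were n-TLcaa2 (4.03) and n-TSaga5 (4.54). The untreated-alone genes were n-TQttg3 (5.88), n-TSaga6 (6.28), n-TSaga1 (5.77) and n-TIaat15 (6.79). All 6 values lay at the low end of their list's range. Over the 92 genes the median ratio of KCl to untreated fold enrichment was 1.02 (0.50 to 1.90), against 0.94 outside, and the 2 lists ranked them alike (Spearman rho 0.89, n = 92 genes, with shared regions among them).

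Of those 92 genes, 3 had an Rpc155 value at least 1.5 times higher with KCl (1.26% of outside genes in both lists), and 4 one at least 1.5 times lower (13.2% of outside genes). With each ratio divided by the outside median, 4 were higher and 2 lower. The 3 were the tyrosine gene n-TYgta7, with 42.1 under KCl and 22.2 untreated, and n-TVaac4 and n-TAagc10 under 1 region, with 45.6 under KCl and 29.8 untreated. n-TDgtc13 stood just short of the limit, at a ratio of 1.44. The 4 lower ones were n-TWcca4, the serine gene n-TSgct5 (14.6 with KCl, 27.5 untreated), n-TSgct8 (4.19 with KCl, 6.62 untreated) and n-TMcat13 (26.7 with KCl, 40.9 untreated). n-TKttt23 followed, at a ratio of 0.67. With no replicate lists, the spread that such ratios have without treatment is unknown.

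Gtf3c1 was listed in both conditions at 70 genes, with KCl alone at 5 (1.67% outside) and untreated alone at 2 (2.34% outside). Its fold enrichment was at least 1.5 times higher with KCl at 22 of the 70 (12.3% outside) and lower at 4 (1.37% outside). The median ratio was 1.28 in the cluster and 1.19 outside. With each ratio divided by the outside median, 7 genes remained higher and 11 were lower, so the balance of higher over lower calls depended on that shift. The largest ratio was at n-TAcgc10, whose value of 17.4 with KCl came from the region it shared with n-TIaat8. n-TYgta7 had 10.4 with KCl and 4.18 untreated, n-TTagt4 had 10.2 with KCl and 4.72 untreated, n-TDgtc11 had 8.22 with KCl and 4.33 untreated, and n-TTagt6 had 14.2 with KCl and 7.52 untreated.

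The 4 genes with lower Gtf3c1 were n-TFgaa1 (5.70 with KCl, 9.31 untreated), n-TScga1 (4.84 with KCl, 7.88 untreated), and n-TAagc7 and n-TVaac5 under 1 region (4.33 with KCl, 6.86 untreated). n-TSgct4 lay just short of the limit (4.48 with KCl, 6.63 untreated). Rpc155 at n-TFgaa1 was 33.8 with KCl and 33.1 untreated, so the lower Gtf3c1 value there did not come with a lower Rpc155 value. n-TYgta7, n-TVaac4 and n-TAagc10, the genes counted as higher with KCl for Rpc155, were counted as higher for Gtf3c1 as well. n-TVaac4 and n-TAagc10 shared 1 Gtf3c1 region (9.51 with KCl, 6.20 untreated).

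H3K27ac differed between the lists in 1 direction. It was present in both conditions at 29 genes, with KCl alone at 33 (4.35% of outside genes) and untreated alone at 0 (0% of outside genes). Outside the cluster 13 of 299 genes were in the KCl list alone, of 143 with H3K27ac in either list. Among tRNA genes with Rpc155 in both lists, H3K27ac was listed at 61 of 92 cluster genes with KCl and 28 untreated, against 142 of 159 outside with KCl and 130 untreated. In groups 1, 4 and 5 the genes with H3K27ac in the KCl list alone numbered 7, 9 and 17.

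These 33 genes had H3K27ac regions with a median KCl fold enrichment of 5.13 (2.70 to 9.05) from 22 distinct regions, below the KCl median of 6.62 at the genes in both lists. All 33 had Rpc155 in both lists, with medians of 42.0 with KCl and 38.4 untreated, and 31 had Gtf3c1 in each. The 29 genes with H3K27ac in both lists had Rpc155 medians of 45.2 with KCl and 44.3 untreated. The 42 genes with H3K27ac in neither list had medians of 14.2 with KCl (33 genes) and 14.9 untreated (34 genes). Examples are n-TEctc11 and n-TFgaa4, at 7.56 with KCl under 1 region, n-TPagg3 at 8.51, and the tyrosine genes n-TYgta3 and n-TYgta4 at 9.05 from 1 region. The region at n-TPagg3 lay beside the gene and was also that of n-TIaat8 and n-TAcgc10, which had 3.81 untreated. The tyrosine genes' region also overlapped the gene Abt1, which had 9.05 with KCl and 5.08 untreated. Its summit lay 2084 bp from n-TYgta3 and 2942.5 bp from n-TYgta4. Being in the KCl list alone thus describes a gene with its flanks, not the wider locus. Rpc155 at these tyrosine genes was nearly equal, 20.3 with KCl and 22.4 untreated at n-TYgta3.

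The size of this difference depended on how a region was assigned to a gene and on the threshold. A KCl H3K27ac region overlapped the gene itself at 15 of the 33 genes, and only the flanks of the rest. An untreated H3K27ac region lay within 1000 bp of 13 of the 33 genes, and no such region lay that near the other 20. With 1000 bp flanks the KCl-alone count was 26 in the cluster and 11 outside. With no flank it was 31 in the cluster and 42 outside, and with at least 50% of the gene covered 31 in the cluster and 43 outside. With fold enrichment of at least 6 it was 23 in the cluster and 37 outside. Under those 3 settings the outside genes thus also had many. At most 15 of the 31 cluster genes with no flank were among the 33, and cluster genes in both lists fell from 29 to 10. With each region counted once the KCl-alone count was 21. Requiring the summit itself in the gene or its 200 bp flanks left 8 with KCl alone and 5 untreated alone in the cluster, and 7 with KCl alone and 16 untreated alone outside, so the difference was then no longer in 1 direction.

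Where H3K27ac was in both lists, its value was mostly higher with KCl. It was at least 1.5 times higher at 17 of 29 genes (40.8% outside) and lower at 0 (0% outside). The median ratio was 1.62 in the cluster and 1.43 outside, and after division by the outside median 5 genes remained higher and 2 were lower. The alanine gene n-TAagc19 had the largest ratio, with 7.97 under KCl and 3.05 untreated. n-TTtgt4 had 6.48 with KCl and 2.79 untreated, and n-TMcat9 had the highest value of the cluster, 14.7 with KCl and 8.51 untreated. n-TAagc16 had 12.6 with KCl and 6.73 untreated, and n-TVcac9 and n-TRacg5 13.2 with KCl and 9.42 untreated. n-TGgcc7 and n-TMcat7 did not share this, with 7.56 under KCl and 7.62 untreated.

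H3K4me1 differed in both directions. It was listed in both conditions at 39 genes, with KCl alone at 15 (9.7% outside) and untreated alone at 13 (2.01% outside). Of the 39, 3 were at least 1.5 times higher with KCl (14.3% outside) and 1 lower (4.29% outside). The median ratio was 1.11 in the cluster and 1.15 outside, and division by the outside median turned the split to 1 higher and 3 lower. The counts of 15 with KCl alone and 13 untreated alone became 15 and 6 with no flank, 13 and 4 with at least 50% of the gene covered, 9 and 3 with 1000 bp flanks, 16 and 7 with q of 1e-05 or lower, and 4 and 1 with fold enrichment of at least 6, but 9 and 12 with the summit required. KCl-alone genes had H3K4me1 values of 2.17 to 4.27, and untreated-alone genes 2.68 to 5.69.

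**Figure D5:**
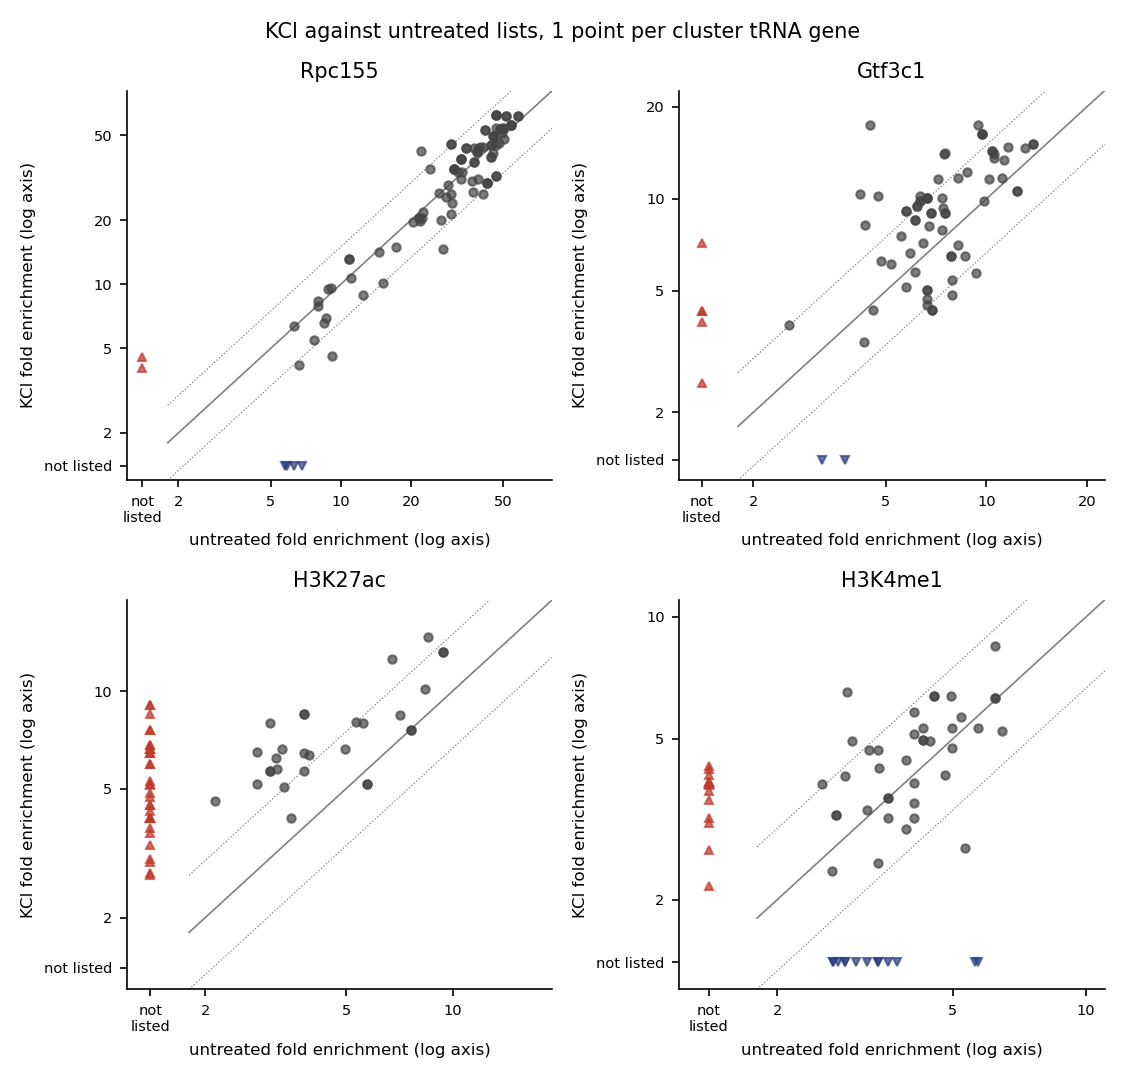
KCl (y axis) against untreated (x axis) fold enrichment on log axes, with 1 point per cluster tRNA gene for each antibody; the solid line marks equal values, dotted lines a ratio of 1.5 either way, and triangles genes in the KCl list alone (left edge) or the untreated list alone (bottom edge). Rpc155 points follow the line, with 2 and 4 genes at the edges, while 33 H3K27ac points sit at the left edge and 0 at the bottom.

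In KCl neurons 32 genes had all 4 of Rpc155, Gtf3c1, H3K27ac and H3K4me1, against 13 in untreated neurons. With KCl, 27 more had Rpc155, Gtf3c1 and H3K27ac without H3K4me1, against 14 untreated. Rpc155 and Gtf3c1 without either histone mark were found at 6 genes with KCl and 20 untreated. Rpc155 with none of the other 3 was found at 9 genes with KCl and 11 untreated. These combinations were counted for cluster genes only, so whether the differences are particular to the cluster cannot be told from them. Those that involve H3K27ac also depend on how a region was assigned to a gene, as described above.

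The other RNA polymerase III genes on the list gave a scale for these values. Of 11, 9 had Rpc155 in each condition. Rmrp, the RNA of RNase MRP, had 60.5 with KCl and 58.2 untreated, Rn7sk, an RNA that restrains transcription elongation, had 32.9 with KCl and 47.7 untreated, and Rpph1, the RNA of RNase P, had 18.3 with KCl and 20.1 untreated. The cluster's medians of 34.9 with KCl and 33.8 untreated lay between these. Rnu6 and Rn5s had no region of any of the 4 antibodies.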

How the data were processed

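Per the submitters' processing notes, Bowtie2 was the aligner, MACS2 the peak caller and GRCm38/mm10 the build; the notes used here give no versions, and the total chromatin input libraries were not analysed here. The deposited fold enrichment is the authors' ratio of a region's summit to the peak caller's local background. For significance, the authors deposited each region's −log10 p and −log10 q from the peak caller, and the lowest −log10 q of each list was near a q of 0.05. The deposited score is 10 times the authors' −log10 q, rounded down, and was not used. Whether replicates were pooled for the lists is not stated, and depth is unknown, so no interval that needs reads is given.

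Here, each tRNA gene took the region of highest fold enrichment among those overlapping the gene or its 200 bp flanks by at least 1 bp, as deposited, with no scaling between lists. Genes that share a region share its value. The 299 nuclear tRNA genes outside the cluster are the background; 5 tRNA entries and 342 entries of other genes were left out as scaffold entries, from their place after the chromosomes in the gene table or a start before 3 Mb (the Y chromosome apart), where the assembled chromosomes hold no sequence. Shares have exact Clopper-Pearson 95% intervals. A fold enrichment at least 1.5 times higher or lower counted as a difference. The overlap counting was tested on simulated regions. Motifs were searched for in RefSeq sequence tables; the planned choice of printed sequences by Rpc155 level could not be followed, since 3 of 104 genes had letters in those tables. The number of unused columns of per-sample values was 0.

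Genes were named by rule: the 5 highest in each Rpc155 and Gtf3c1 list, the 5 highest and lowest ratios, those with Rpc155 in 1 list, up to 6 with Rpc155 and no Gtf3c1, the first and last, and the sole genes of an anticodon; other names were chosen after their values were seen. The members (as a subject, by a rule that uses no measured value), lists and other rules were chosen with earlier results of these data known. Alternatives were other flanks, overlap rules, thresholds, list lengths and gap sizes. Python 3.11.15, pandas 2.3.3, numpy 2.4.6, scipy 1.17.1 and matplotlib 3.10.9 were used.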

Additional observations from a re-analysis of the deposited data

How the results depend on the processing

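Of 214 values recomputed under other settings for 53 results, 142 stayed within the limits set for a like value and 72 moved; each value below, unless named otherwise, is a number of cluster tRNA genes, and the cause of a move was not tested unless the setting itself removes genes or regions. The counts of genes per list for Rpc155 and Gtf3c1, and the medians and shares of all antibodies, stayed within those limits under the settings run for them. The limits for counts were wide. With the summit in the gene or its flanks, Rpc155 was listed at 71 with KCl and 72 untreated, and Gtf3c1 at 57 and 56. With each region counted once, Rpc155 was listed at 70 with KCl and 71 untreated, and Gtf3c1 at 56 and 55. With no flank, H3K27ac was listed at 41 genes with KCl and 11 untreated (10 in both, 1 untreated alone), and H3K4me1 at 23 with KCl and 14 untreated (8 in both, 6 untreated alone). With at least 50% of the gene covered, H3K27ac was listed at 41 with KCl and 11 untreated (10 in both, 1 untreated alone), H3K4me1 at 20 with KCl and 11 untreated (7 in both, 4 untreated alone), and Gtf3c1 untreated alone at 4. With 1000 bp flanks, H3K27ac was listed at 44 untreated (44 in both), and H3K4me1 at 91 with KCl and 85 untreated (82 in both, 9 with KCl alone, 3 untreated alone). With the summit in the gene or its flanks, H3K27ac was listed at 10 with KCl and 7 untreated (2 in both, 8 with KCl alone, 5 untreated alone). H3K4me1 was then listed at 13 with KCl and 16 untreated (4 in both, 9 with KCl alone), and Gtf3c1 with KCl alone at 9 and untreated alone at 8. With a fold enrichment of at least 6, H3K27ac was listed at 31 with KCl and 8 untreated (8 in both), and H3K4me1 at 7 with KCl and 4 untreated (3 in both, 4 with KCl alone, 1 untreated alone). Gtf3c1 was then in both at 46, with KCl alone at 11 and untreated alone at 10, and Rpc155 with KCl alone at 0. With q of 1e-05 or lower, H3K4me1 was listed at 33 untreated (7 untreated alone) and Gtf3c1 untreated alone at 1.

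With each region counted once, Gtf3c1 was in the KCl list alone at 9 and the untreated list alone at 8, and H3K27ac at 21 and 3. Among genes with Rpc155 in both lists, Rpc155 was by construction in 1 list alone at 0 for KCl and 0 untreated, and Gtf3c1 untreated alone at 1. Both settings were chosen after seeing the data, as was counting the scaffold entries as outside genes, which moved none of the 8 outside shares beyond their intervals. At a fold of 2 in place of 1.5, higher and lower values with KCl numbered 0 and 1 in the Rpc155 lists. They numbered 3 and 0 in those of Gtf3c1 and 1 and 0 in those of H3K4me1, and 6 were higher in those of H3K27ac. With ratios divided by the outside median, 2 were lower for Rpc155, 7 higher and 11 lower for Gtf3c1, 5 higher and 2 lower for H3K27ac, and 1 higher and 3 lower for H3K4me1. With gaps of up to 200 kb joined there were 3 position groups in place of 5. Equal list lengths moved none of the 20 values recomputed with them.

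No paired analysis was possible because each antibody and condition has 1 list, and for the same reason leaving out a replicate was not run. The planned count of 1 gene per distinct sequence was not run, since 3 genes had letters. Depth is unknown, and a gene absent from a list was under that list's threshold, not shown to be free of the protein or mark.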

Other observations

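The protein-coding genes that share the 20 to 24 Mb interval with these tRNA genes were counted by the same rule. Of 54 histone genes, 47 had H3K27ac with KCl and 36 untreated, with medians of 10.5 and 4.76, and a median ratio of 2.25 over the genes in both lists. Gtf3c1 was listed at 41 histone genes with KCl and 27 untreated, while Rpc155 was listed at 9 with KCl and 8 untreated, including H4c8, which lies 625 bp from n-TMcat9. Of 36 Vmn1r vomeronasal receptor genes, 0 had Rpc155 or Gtf3c1 in either condition and 1 had H3K27ac with KCl and 0 untreated. The 12 olfactory receptor genes had no region in any list. The 7 zinc finger genes had H3K27ac in both conditions, with a median of 8.24 with KCl and 5.77 untreated.

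Members near a protein-coding gene were few. Of the 14 tRNA genes within 5 kb of one, 12 had H3K27ac with KCl and 3 untreated. Of the 90 farther away, 50 had it with KCl and 26 untreated. The H3K27ac regions in the span of the cluster covered 129.7 kb with KCl and 53.8 kb untreated. Whether the width of the H3K27ac regions had a part in the count of genes listed with KCl alone was not tested.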
